A study of Mus musculus with 4 samples.

Results

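The genes described here are 35 components of the DNA replication machinery, from the factors that mark origins to the assembly factor that packs new DNA into chromatin, chosen by name and role and read by their platform gene symbol. A probe set naming 1 gene measured 34 of them, among 14061 genes kept in all. The exception was Rfc4, whose symbol occurred only on a probe set shared with Eif4a2. RNA came from LSK cells of male C57/B6 mice at 4 months of age. These are the bone marrow cells that lack lineage markers and carry Sca-1 and c-Kit, among them the stem cells and multipotent progenitors of blood. There were 4 groups with 1 Affymetrix array each, namely both genotypes, Ctrl and AMKO, at day 0 (basal) and at day 8 after an injection of 5FU at 150 mg/kg. 5FU (5-fluorouracil) is a uracil analog that is toxic to cells in cycle, and per the series design it served to activate stem cells. AMKO is a genotype label that the sources used here do not spell out, so its targeted gene was not read, and neither the number of mice behind an array nor the way the allele is driven is given.

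Before a cell can copy its DNA, the origin recognition complex marks the origins, and Cdc6 and Cdt1 load the MCM helicase there, a step called licensing. In S phase the kinase Cdc7 with its activator Dbf4 fires the licensed origins, polymerase alpha-primase lays the first primers, and polymerases epsilon and delta extend the leading and lagging strands while held by the sliding clamp PCNA. RPA covers the single strands, Fen1 and Lig1 process and join the Okazaki fragments, and chromatin assembly factor 1 deposits new histones. Most long-term stem cells in the resting marrow are quiescent, and the transcription of many of these genes is under E2F control in cycling cells.

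Both 5FU comparisons set 1 array against 1 array, so they have no replicate error and no test. Values are given on the log2 scale as deposited, differences are log2 differences, and a difference of 1 is 2-fold. All 34 measured genes lay above the floor of 5.475, the median of all values, on all 4 arrays, and their lowest value was 6.03. Levels of different genes come from different probe sets and are not compared. In sorted bulk cells, more cells in cycle and more RNA per cell cannot be told apart.

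Promoter windows are shown for Dbf4, Mcm10 and Fen1, the 3 genes with the largest 5FU difference shared by both genotypes among those with a window in the table used (windows of Gmnn and Prim2 were not used here), for Orc5 and Orc3, which lay near no mean difference, and for Pole2, added after its letters were seen as an example of an E2F match. Each is the RefSeq window on GRCm38.p6 from 250 bases before to 30 bases after a transcript start, written from 5′ to 3′ in the direction of the gene. Capitals mark matches, on either strand, to the E2F letters TTTCCCGC, TTTCGCGC, TTTGCCGC or TTTGGCGC, to the cell cycle homology region (CHR) letters TTTGAA, or to the CCAAT box.
Dbf4 (chr5:8422687-8422966, minus strand): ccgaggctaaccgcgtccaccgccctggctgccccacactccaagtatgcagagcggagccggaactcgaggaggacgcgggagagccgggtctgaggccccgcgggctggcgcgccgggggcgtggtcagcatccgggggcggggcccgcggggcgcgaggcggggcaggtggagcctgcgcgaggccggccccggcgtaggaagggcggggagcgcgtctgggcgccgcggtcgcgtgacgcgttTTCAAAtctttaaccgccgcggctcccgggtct
Mcm10 (chr2:5012762-5013041, minus strand): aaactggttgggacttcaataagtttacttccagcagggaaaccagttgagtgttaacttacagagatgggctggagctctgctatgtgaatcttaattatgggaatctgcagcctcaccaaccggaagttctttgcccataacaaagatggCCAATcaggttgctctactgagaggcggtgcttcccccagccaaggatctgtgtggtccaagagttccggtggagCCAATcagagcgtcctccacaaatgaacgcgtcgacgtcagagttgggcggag
Fen1 (chr19:10204364-10204643, minus strand): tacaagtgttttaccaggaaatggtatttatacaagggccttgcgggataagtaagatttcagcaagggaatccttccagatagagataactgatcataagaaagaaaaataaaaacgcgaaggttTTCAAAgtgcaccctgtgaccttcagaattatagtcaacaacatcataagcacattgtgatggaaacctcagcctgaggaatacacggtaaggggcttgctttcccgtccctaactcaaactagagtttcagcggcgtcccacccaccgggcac
Orc5 (chr5:22550309-22550588, minus strand): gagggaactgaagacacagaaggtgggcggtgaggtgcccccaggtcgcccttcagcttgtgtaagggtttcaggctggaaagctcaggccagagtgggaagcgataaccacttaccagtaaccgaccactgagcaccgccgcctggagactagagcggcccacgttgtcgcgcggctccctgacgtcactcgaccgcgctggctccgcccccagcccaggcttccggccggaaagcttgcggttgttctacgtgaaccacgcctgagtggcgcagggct
Orc3 (chr4:34614913-34615192, minus strand): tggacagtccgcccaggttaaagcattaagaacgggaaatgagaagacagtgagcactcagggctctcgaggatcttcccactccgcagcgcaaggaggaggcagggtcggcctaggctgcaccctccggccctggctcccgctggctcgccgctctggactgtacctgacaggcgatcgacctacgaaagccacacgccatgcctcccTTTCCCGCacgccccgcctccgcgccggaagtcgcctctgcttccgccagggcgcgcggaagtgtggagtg
Pole2 (chr12:69228161-69228440, minus strand): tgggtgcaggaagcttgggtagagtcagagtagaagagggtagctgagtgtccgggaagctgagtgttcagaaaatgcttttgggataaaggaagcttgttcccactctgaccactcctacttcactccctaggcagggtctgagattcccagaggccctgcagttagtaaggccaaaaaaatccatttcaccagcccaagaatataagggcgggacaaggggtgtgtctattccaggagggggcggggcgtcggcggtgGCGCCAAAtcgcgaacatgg

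Windows of this length were listed for 30 of the 35 genes, taking the first listed start of each. E2F letters occurred in 7 of the 30 (23.3%), against 584 of 27025 genes overall (2.16%). The 7 were Orc1, Orc3, Cdc6, Pola1, Pole2, Pold3 and Rfc3. The listed start minus the gene's start was 3749 bases for Orc1, 442 for Cdc6 and -232 for Pola1. Among genes without E2F letters it was -2821 for Orc4, -2978 for Rfc1 and -71 for Rpa1. These windows lay beyond the 50 bases allowed for printing but are included in the counts and medians given here. Counts and medians without them were not computed. CCAAT occurred in 14 of 30 (46.7%, against 36.6% of the 27025) and the CHR letters in 3 of 30 (10.0%, against 17.4%), namely Cdc7, Dbf4 and Fen1. The 27025 are the genes with a listed window, not selected by level on the arrays, unlike the 14061 genes kept. Genes with E2F letters in the window did not have larger median 5FU differences than the rest, although Cdc6, the highest in Ctrl (1.77), was among them. Their median was 0.61 in Ctrl and 0.62 in AMKO, against 0.69 and 0.71 for the 22 measured genes without these letters. The 3 genes with CHR letters had medians of 1.24 and 1.58, against 0.64 and 0.62 for the 26 without. These medians of 3 are the values of Fen1, and Cdc7 was at 0.70 in Ctrl and 0.53 in AMKO. A second Fen1 probe set differed by only 0.17 and 0.18. Orc3, with TTTCCCGC, differed by 0.00 and 0.44, while Dbf4 and Mcm10, without E2F letters in the window, differed by at least 1.29 in each genotype. A match is a description of the letters, and a window without one says only that they are not within it.

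LSK cells sorted at day 8 after 5FU had higher levels of most replication genes than basal LSK cells in both genotypes. The median difference over the 34 genes was 0.69 in Ctrl and 0.63 in AMKO, against 0.01 and 0.03 over all 14061 genes. In Ctrl 32 genes were above 0, 1 was below (Chaf1b) and 1 at 0 (Orc3, at -0.12 after quantile normalization). Of all genes, 50.1% were above 0 and 48.9% below. In AMKO 33 were above 0 and only Orc5 was below (with Orc4, at -0.03, after quantile normalization), where 52.3% of all genes were above and 46.8% below. At least 2-fold higher were 9 of the 34 in Ctrl and 11 in AMKO, and none was 2-fold lower. Over all genes, 5.02% in Ctrl and 4.69% in AMKO were 2-fold higher, and 4.46% and 3.55% were 2-fold lower. At least 1.5-fold higher were 20 genes in Ctrl (11.9% of all genes) and 22 in AMKO (15.4%), and at least 3-fold higher were 1 gene in Ctrl (Cdc6; 2.06% of all genes) and 2 in AMKO (Dbf4 and Prim2; 0.974%).

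Both day 8 arrays lay above both basal arrays for 30 of the 34 genes, compared with 32.0% of all genes. The exceptions were Orc3, Orc4, Orc5 and Chaf1b. At least 2-fold higher in both genotypes were 7 genes (1.96% of all genes were): Cdt1, Gmnn, Mcm10, Dbf4, Prim2, Rpa1 and Fen1. After quantile normalization Cdt1 in Ctrl (0.95) and Rpa1 in both genotypes (0.95 and 0.96) lay under 2-fold, which left 5. In 1 genotype only, 6 of the 34 were at least 2-fold higher (17.6%, against 5.79% of all genes). Cdc6 and Rpa3 reached 2-fold in Ctrl alone, and Orc1, Orc2, Prim1 and Pole2 in AMKO alone. After quantile normalization Rpa3 in Ctrl (0.97) and Prim1 in AMKO (0.88) lay under 2-fold as well, and the counts were 6 in Ctrl and 9 in AMKO. Just under 2-fold lay Pole (0.97), Orc2 (0.94) and Prim1 (0.94) in Ctrl and Rpa3 in AMKO (0.95). Exactly on it lay Cdt1 in Ctrl (1.0) and Prim1 in AMKO (1.0).

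**Figure D1:**
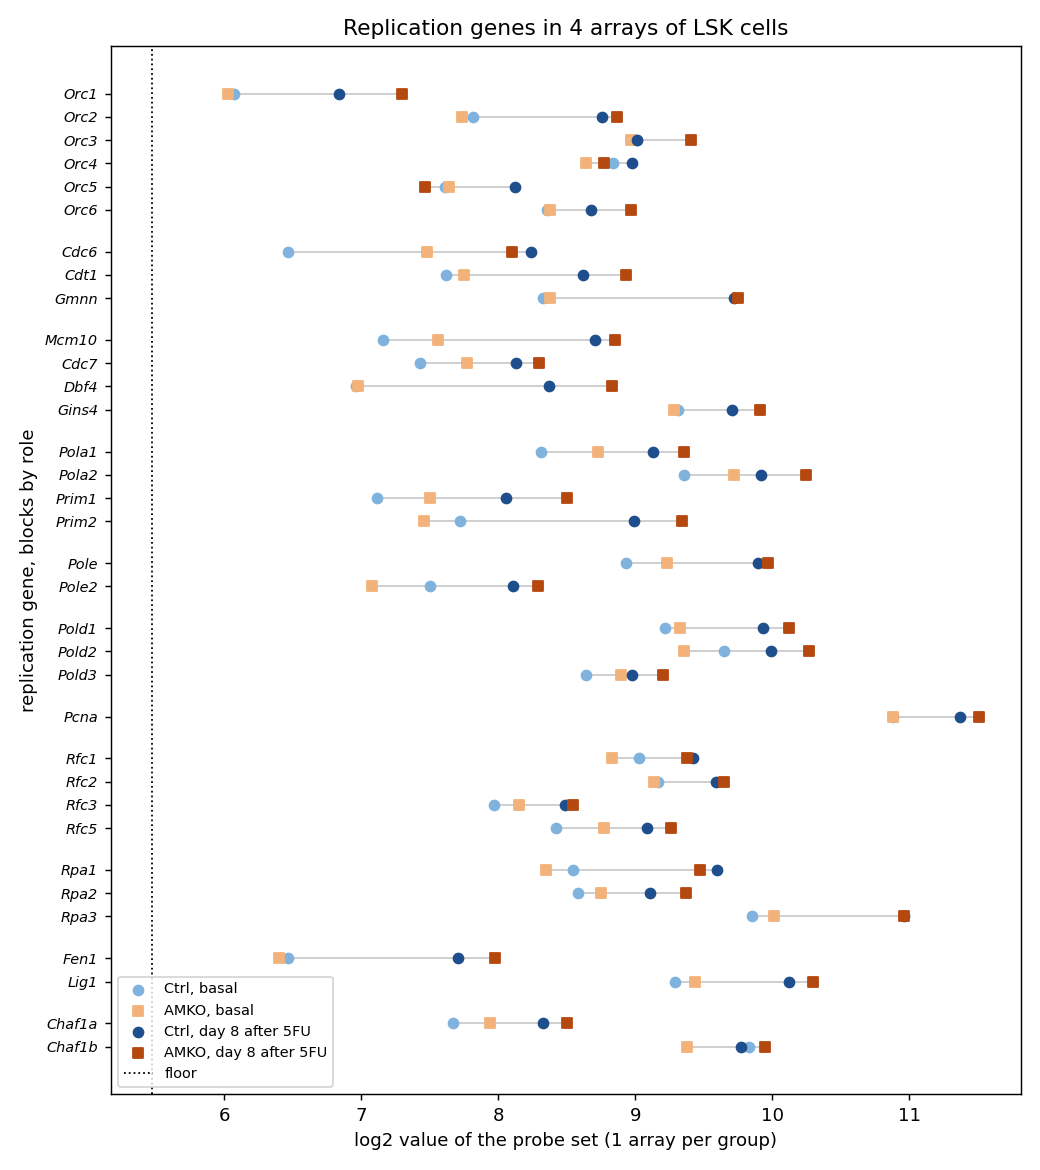
Log2 probe set values (horizontal axis) of the 34 measured replication genes (vertical axis, blocks by role) in the 4 arrays, circles for Ctrl and squares for AMKO, light for basal and dark for day 8 after 5FU; the dotted line is the floor of 5.475. The dark symbols lie to the right of both light ones for 30 genes, and not for Orc3, Orc4, Orc5 and Chaf1b.

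The origin recognition complex differed by a median of 0.42 (Ctrl) and 0.52 (AMKO), with subunits from 0.00 to 0.94 in Ctrl and from -0.17 to 1.27 in AMKO. Orc2, a core subunit, was at 7.82 (Ctrl) and 7.74 (AMKO) at basal, and at 8.76 and 8.87 at day 8. Both day 8 values were above both basal values, and the differences were 0.94 and 1.13. Orc1, the ATPase subunit whose abundance is cell cycle regulated in mammals, was at 6.07 and 6.03 at basal and at 6.84 and 7.30 at day 8, a difference of 0.77 in Ctrl and 1.27 in AMKO. Orc6, which joins the core of the complex, was higher by 0.32 and 0.59.

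The other subunits moved little or in 1 genotype. Orc4 was at 8.84 and 8.64 at basal and at 8.98 and 8.77 at day 8, so the groups overlapped, and its differences were 0.14 and 0.13. Orc3 had the same value, 9.01, on both Ctrl arrays, and 8.97 and 9.41 on the AMKO arrays. Orc5 was at 7.61 and 7.64 at basal, at 8.12 in Ctrl day 8 and at 7.47 in AMKO day 8. It was the only gene of the 34 lower after 5FU in AMKO, by 0.17 on the log2 scale (0.51 higher in Ctrl).

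The licensing group was Cdc6, Cdt1 and an inhibitor, Gmnn. It had the highest median of any role in Ctrl, 1.39 (the value of Gmnn), and a median of 1.18 in AMKO (that of Cdt1). Gmnn encodes geminin, which binds Cdt1 and blocks relicensing after S phase has begun. It had values of 8.33 and 8.38 at basal and of 9.72 and 9.75 at day 8, so the genotypes were nearly level at each time and the differences were 1.39 and 1.37, or 2.62-fold and 2.58-fold. Cdt1, the MCM loader that geminin inhibits, was at 7.62 and 7.75 at basal and at 8.62 and 8.93 at day 8, a difference of 1.0 and 1.18. Inhibitor and target were thus both higher at day 8.

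Cdc6, the ATPase that loads MCM together with Cdt1, was the gene on which the genotypes differed most. It was at 6.47 (Ctrl) and 7.48 (AMKO) at basal, and at 8.24 and 8.10 at day 8. The Ctrl basal array was low and the other 3 lay within 0.76 of each other. The 5FU difference was 1.77 in Ctrl (3.41-fold) and 0.62 in AMKO (1.54-fold). The AMKO minus Ctrl difference of these differences, -1.15, was the only one of the 34 past 2-fold, where 5.50% of all genes were.

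Among the firing factors, Dbf4, the regulatory subunit that activates the Cdc7 kinase, had basal values of 6.96 and 6.98 and day 8 values of 8.37 and 8.83. Its differences, 1.41 and 1.85 (2.66-fold and 3.61-fold), gave the highest mean over both genotypes of the 34 genes. The kinase itself, Cdc7, differed by 0.70 and 0.53. Mcm10, which binds the helicase and helps to activate it, was at 7.16 and 7.56 at basal and at 8.71 and 8.85 at day 8, a difference of 1.55 and 1.29. Gins4, a subunit of the GINS part of the helicase, was at 9.31 and 9.28 at basal and at 9.71 and 9.91 at day 8, with the smallest mean difference of this group (0.40 and 0.63).

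Polymerase alpha-primase, which makes the RNA-DNA primers, had medians of 0.88 and 0.81, and its primase subunits differed more than its polymerase subunits. Prim2, the large primase subunit, had basal values of 7.72 and 7.46 and day 8 values of 8.99 and 9.34, so it was 2.41-fold and 3.68-fold higher. Prim1, the catalytic primase subunit, differed by 0.94 and 1.0. Pola1, the catalytic polymerase subunit, differed by 0.82 and 0.63. Pola2, the accessory subunit, was at 9.36 and 9.72 at basal and at 9.92 and 10.25 at day 8, a difference of 0.56 and 0.53.

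For polymerase epsilon, the leading strand enzyme, Pole (catalytic subunit) was at 8.93 and 9.23 at basal and at 9.90 and 9.97 at day 8, a difference of 0.97 and 0.74. Pole2, its second subunit, was at 7.50 and 7.08 at basal and at 8.11 and 8.29 at day 8, a difference of 0.61 and 1.21. For polymerase delta, the lagging strand enzyme, medians were 0.34 and 0.79 and no subunit reached 2-fold. Pold1, the catalytic subunit, was at 9.22 and 9.33 at basal and at 9.93 and 10.12 at day 8, a difference of 0.71 and 0.79. Pold3 was at 8.64 and 8.90 at basal and at 8.98 and 9.20 at day 8, where the day 8 values exceeded the higher basal value by at least 0.08. Pold2 differed by 0.34 in Ctrl and 0.91 in AMKO.

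The sliding clamp and its loader had small differences of similar size in both genotypes. Pcna, the clamp, was at 10.88 on both basal arrays and at 11.37 and 11.51 at day 8, or 1.40-fold and 1.55-fold higher. Of the loader, Rfc1, Rfc2, Rfc3 and Rfc5 differed by 0.39 to 0.67 in Ctrl and by 0.40 to 0.55 in AMKO, the narrowest ranges of any role with more than 3 measured genes. Rfc5 was at 8.42 and 8.77 at basal and 9.09 and 9.26 at day 8, and Rfc3 at 7.97 and 8.15 and then at 8.49 and 8.55. The probe set shared by Rfc4 and Eif4a2, which encodes a translation initiation helicase, was at 7.95 and 7.50 at basal and at 8.97 and 8.86 at day 8. Which of the pair of genes gave this signal cannot be told apart.

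RPA had medians of 1.05 and 0.95. Rpa1, the large DNA-binding subunit, was at 8.55 and 8.35 at basal and at 9.60 and 9.47 at day 8, a difference of 1.05 and 1.12. Rpa3, the smallest subunit, was at 9.85 and 10.01 and then at 10.96 on both day 8 arrays. Rpa2, the middle subunit, differed less, with 8.58 and 8.75 at basal and 9.11 and 9.37 at day 8. Fen1, the flap endonuclease that trims Okazaki fragments, was at 6.47 and 6.40 at basal and at 7.71 and 7.98 at day 8, or 2.36-fold and 2.99-fold higher. Lig1, the ligase that seals them, was at 9.29 and 9.44 at basal and at 10.12 and 10.30 at day 8, a difference of 0.83 and 0.86.

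Second probe sets, of Pole, Rpa1, Rpa3 and Fen1, gave smaller differences, and that of Rpa1 lay below 0 in Ctrl. For Rpa1 the second probe set was at 4.42 to 4.69 on all arrays, under the floor, and differed by -0.27 in Ctrl and 0.17 in AMKO. For Pole it was at 4.01 to 4.34, also under the floor. The second Fen1 probe set was at 5.73 and 5.57 at basal and at 5.90 and 5.75 at day 8, a difference of 0.17 and 0.18, and that of Rpa3 differed by 0.38 and 0.53. With a gene's probe sets averaged, Rpa1 (0.39 and 0.65), Fen1 (0.70 and 0.88) and Rpa3 in Ctrl (0.74) were no longer 2-fold higher.

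Of chromatin assembly factor 1, which loads histones behind the fork by way of PCNA, Chaf1a was at 7.67 and 7.94 at basal and at 8.33 and 8.50 at day 8, a difference of 0.66 and 0.56. Chaf1b was at 9.83 in Ctrl and 9.38 in AMKO at basal and at 9.77 and 9.95 at day 8. In the values as deposited it was the only gene below 0 in Ctrl, by 0.06 on the log2 scale, against 0.57 higher in AMKO. Its Ctrl basal value lay above its Ctrl day 8 value.

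**Figure D2:**
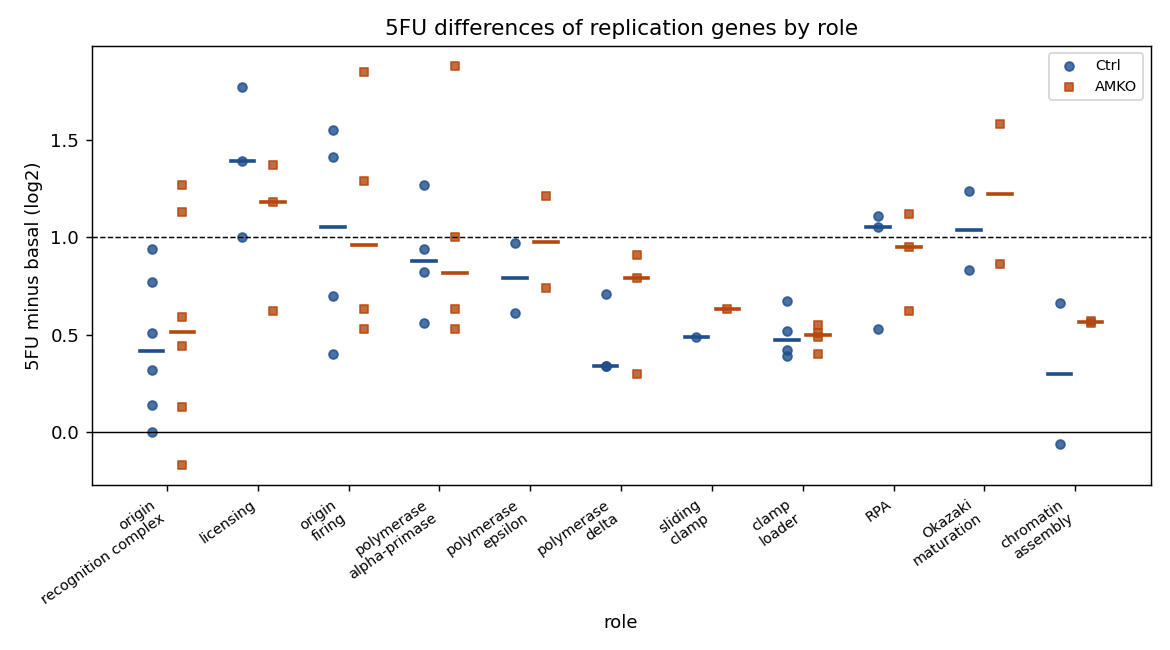
Log2 difference of day 8 after 5FU minus basal (vertical axis) for each measured replication gene by role (horizontal axis), circles for Ctrl and squares for AMKO, bars for the median of the role, dashed line at 2-fold. Licensing (Cdc6, Cdt1 and the inhibitor Gmnn) has medians of 1.39 and 1.18, while the clamp loader has 0.47 and 0.50. The origin recognition complex spreads from 0.00 to 0.94 in Ctrl and from -0.17 to 1.27 in AMKO.

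Pairs of genes that work in 1 complex or step were set against each other within the same arrays, where a shift of a whole array cancels. The pairs were chosen after their values were seen. Dbf4 differed by more than Cdc7 by 0.71 in Ctrl and 1.32 in AMKO. Fen1 differed by more than Lig1 by 0.41 and 0.72, Prim2 by more than Prim1 by 0.33 and 0.88, and Orc2 by more than Orc3 by 0.94 and 0.69. The excess of Fen1 depended on its probe set. With its probe sets averaged Fen1 differed by 0.70 and 0.88, against 0.83 and 0.86 for Lig1. Gmnn differed by more than Cdt1 by 0.39 and 0.19. For other pairs the sign turned with the genotype: Pole2 against Pole gave -0.36 in Ctrl and 0.47 in AMKO, Pold2 against Pold1 -0.37 and 0.12, and Cdc6 against Cdt1 0.77 and -0.56. With the probe sets of Pole averaged, Pole differed by 0.59 and 0.47, against 0.61 and 1.21 for Pole2, so that sign no longer turned. Chaf1b against Chaf1a gave -0.72 in Ctrl and was about level in AMKO, at 0.01.

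The difference averaged over both genotypes was fitted with limma across all 14061 genes, with additive terms for genotype and treatment. Each gene has 1 residual degree of freedom in this fit, which takes the difference between the genotypes' 5FU differences as error. No gene passed an adjusted p of 0.05 (Benjamini-Hochberg), so 0 of the 34 and 0.00% of all genes were called. At an unadjusted p under 0.05 were 29 of the 34, all higher, against 27.8% of all genes (15.7% higher). Standard errors of the 34 lay between 0.10 (Pcna) and 0.33 (Cdc6), with adjusted p between 0.0697 and 0.664. The count depended on the processing: 11 of the 34 were called after quantile normalization, 18 of 33 with a floor at the 75th percentile, 16 with robust estimation and 1 after median centring (Gmnn). In those settings 6.74%, 15.7%, 9.35% and 1.15% of all genes were called. Without the AMKO day 8 array, where treatment alone was fitted and the single day 8 array is assumed to vary like the basal arrays, Gmnn and Dbf4 were called (3.28% of all genes).

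**Figure D3:**
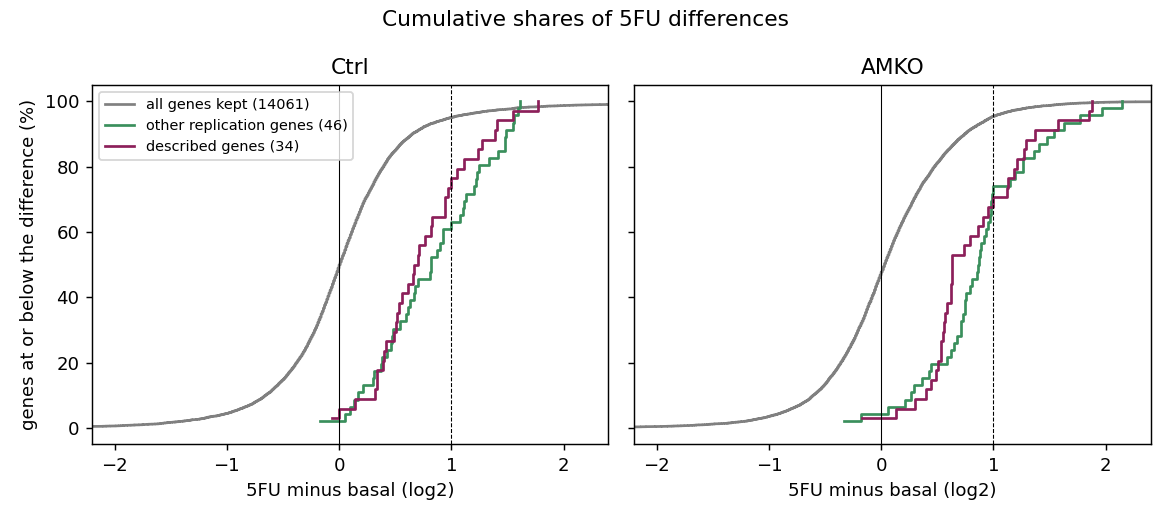
Cumulative share of genes (vertical axis, percent) at or below a given log2 difference of day 8 minus basal (horizontal axis) in Ctrl and AMKO, for all 14061 genes kept, 46 other replication genes and the 34 genes described. The curve of the 34 crosses the middle at 0.69 in Ctrl and 0.63 in AMKO, against 0.01 and 0.03 for all genes.

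The other genes of the pathway were read from a list of 48, with 46 of them on probe sets naming 1 gene. In Ctrl 18 of 46 (5.02% of all genes) and in AMKO 13 of 46 (4.69%) were at least 2-fold higher. None was 2-fold lower (4.46% and 3.55% of all genes), and medians were 0.82 and 0.86 (0.01 and 0.03 over all genes). Tipin, of the fork protection complex, was highest by mean, with 8.21 and 7.86 at basal and 9.76 and 10.01 at day 8. Gins1, of the helicase, differed by 1.61 and 1.97, and Rrm2, the small subunit of ribonucleotide reductase, by 1.59 and 1.77. The lowest were Pold4, the small subunit of polymerase delta (-0.17 and -0.33), Ten1 (0.05 and -0.18) and Ctc1 (0.10 and 0.43), the last pair being subunits of the CST complex of telomere replication. Mki67, a proliferation marker, was at 10.44 and 10.47 at basal and at 11.50 and 11.26 at day 8.

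The arrays differed in markers of other cells. Kit, a sort marker, was at 11.84 (Ctrl) and 11.87 (AMKO) at basal and at 11.08 and 11.16 at day 8, so it was lower by 0.76 and 0.71 on the log2 scale. Ly6a, which encodes Sca-1, had no probe set of 1 gene. All 5 measured stem cell markers were lower at day 8 in both genotypes (median differences -0.59 and -0.36), as were all 4 measured megakaryocyte markers (-0.91 and -0.78). All 9 neutrophil markers were at least 2-fold higher at day 8 in Ctrl and 1 was in AMKO, and their median was 10.71 on the Ctrl day 8 array, 5.48 on the AMKO day 8 array and 5.28 (Ctrl) and 5.23 (AMKO) at basal. Their summed level was 14.34 (log2) in Ctrl day 8 and 8.24 to 8.50 in the others, where 4 to 7 of the 9 lay under the floor. Granulocyte-monocyte markers had medians of 9.16 in Ctrl day 8 and 5.54 to 5.80 in the others, B-lineage markers 8.34 and 5.23 to 5.46, and monocyte and macrophage markers 6.56 and 4.46 to 4.90. Skeletal muscle markers had a median of 8.93 in Ctrl basal and 5.44 to 6.35 in the others. Cd48, Flt3 and Cd34, markers of multipotent progenitors, were higher at day 8 in both genotypes, by 0.52 to 4.97. The median of the neutrophil markers' differences was 6.08 in Ctrl and 0.15 in AMKO. The part of the neutrophil, stem cell, progenitor, megakaryocyte and other markers in the replication gene differences was not tested in either genotype.

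The genotypes' 5FU differences, which share no array, correlated across the 34 genes (Pearson's r 0.668, Spearman's rho 0.721), which are not independent replicates. The correlation over all genes was not computed, so whether it is particular to the 34 was not tested. For 24 of the 34 the difference in AMKO lay within 0.3 of that in Ctrl (70.6%, against 56.1% of all genes). It was larger in AMKO for 20 genes (58.8%, against 55.2% of all genes) and larger in Ctrl for 14 (41.2%, against 43.7%). With Cdc6, 6 genes were over 0.5 apart (17.6%, against 22.7% of all genes). The other 5 were Orc5 (-0.68, AMKO minus Ctrl), Chaf1b (0.63), Prim2 (0.61), Pole2 (0.60) and Pold2 (0.57). For Chaf1b, Prim2, Pole2 and Pold2 the AMKO value was the lower of the basal values and the higher of the day 8 values.

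**Figure D4:**
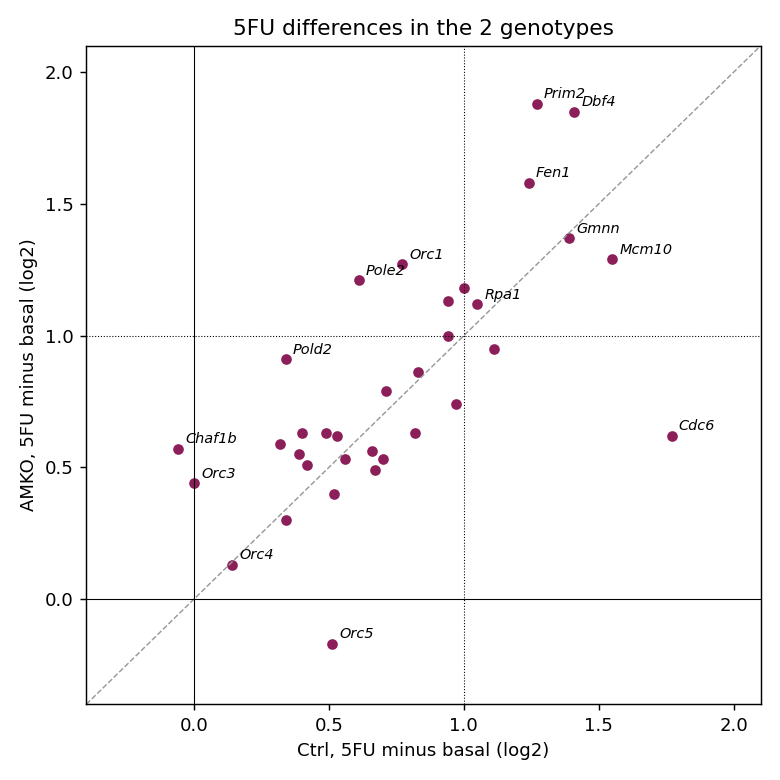
Log2 difference of day 8 after 5FU minus basal in Ctrl (horizontal axis) and AMKO (vertical axis) for the 34 measured replication genes, 1 point per gene, with the line of equality dashed and 2-fold dotted. Cdc6 (1.77 and 0.62) lies farthest below the line, and Orc5 is the only point below 0 in AMKO.

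AMKO was also set against Ctrl at each time. These differences use the same arrays as the 5FU differences. At basal the median of the 34 genes was 0.04 (-0.04 after median centring), with 20 above 0 (49.4% of all genes were) and 13 below (49.0%). Only Cdc6 was 2-fold different, at 1.01 (0.228% of all genes were 2-fold higher), and at 0.93 after median centring it was not. Pola1 (0.42), Mcm10 (0.40), Prim1 (0.38), Pola2 (0.36), Rfc5 (0.35) and Cdc7 (0.34) were next above, and Chaf1b (-0.45), Pole2 (-0.42), Pold2 (-0.29) and Prim2 (-0.26) were the lowest. The Ctrl basal array was the one with the high skeletal muscle markers (median 8.93, against 5.47 in AMKO basal), and their part in these differences was not tested.

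At day 8 none of the 34 was 2-fold different (0.740% of all genes were 2-fold higher and 2.63% lower). The median was 0.18, against 0.06 over all genes, and 28 of the 34 were above 0 (59.0% of all genes) and 5 below (39.5%). Orc1 and Dbf4 (each 0.46), Prim1 (0.44) and Orc3 (0.40) were highest in AMKO and Orc5 (-0.65) was lowest. At day 8 the Ctrl array was the one with the high neutrophil and B-lineage markers, and their part in this difference was not tested.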

How the data were processed

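The authors deposited 1 value per probe set and array, read as log2 because all values lay between 1.99 and 13.43; the sources used here do not give the background correction or the normalization. RNA was column-extracted and, per the labels' protocols, biotin-labelled by the Affymetrix procedure. The array medians lay between 5.43 and 5.55, and the deposited log2 values were used without further scaling. With 1 array per group, the number of arrays limits precision.

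Of 34472 probe sets, 23521 named 1 gene, 1814 several and 9137 none. For 23328 of those with 1 gene, the symbol was brought up to date by Entrez identifier in a RefSeq table of GRCm38.p6. Where 1 gene had several probe sets, the one with the highest mean was used. Genes were kept when their highest value reached the median of all values (5.475), leaving 14061. The genes, lists and comparisons were chosen with earlier results of these data known.

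Differences of 1 array and 1 array have no test. For the 5FU average, limma 3.58.1 was run in R 4.3.3 (lmFit, eBayes with an intensity trend, two-sided, Benjamini-Hochberg over all genes, prior degrees of freedom 2.62). The fit was tested on simulated data. All genes on the list could be named. Values on all 4 arrays are given for those 2-fold different in both genotypes and for the highest and lowest of each role by mean difference. Orc1, Orc3, Orc5, Cdc6 and Rpa3 were added after their values were seen. Promoters were printed only where the listed start lay within 50 bases of the gene's start, which left out Orc4. The counts of matches and their medians were not limited in this way. Alternatives were quantile normalization, median centring, averaged probe sets, either no floor or one at 7.32 (the 75th percentile), sizes of 1.5-fold and 3-fold, eBayes without the trend or made robust, and each array left out (fitted with treatment alone).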

Additional observations from a re-analysis of the deposited data

Results flagged for a closer look

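The 5FU difference of Orc5 was 0.51 in Ctrl and -0.17 in AMKO, opposite signs that put the AMKO minus Ctrl difference at -0.68. That of Chaf1b was -0.06 in Ctrl and 0.57 in AMKO, which puts the same difference at 0.63. Neither difference was tested, since each group has 1 array.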

How the results depend on the processing

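The median 5FU difference of the 34 genes in Ctrl moved by less than 0.1 under every scaling, floor and probe set setting tried. In AMKO it was 0.63, 0.49 after quantile normalization and 0.74 after median centring, which raised AMKO differences as a whole, with a median over all genes of 0.15 in place of 0.03. The median AMKO minus Ctrl difference at basal, 0.04, turned to -0.04 after median centring. With 1.5-fold as the size, 20 genes in Ctrl and 22 in AMKO were called higher (11.9% and 15.4% of all genes), and with 3-fold 1 and 2 (2.06% and 0.974%). In the additive fit, the limma count of 0 became 11 after quantile normalization (6.74% of all genes were called) and 1 after median centring (1.15%). It became 18 of 33 with the 75th percentile floor (15.7%) and 16 of 34 with robust estimation (9.35%). It stayed at 0 with averaged probe sets, no floor or no trend. With 1 array left out the additive model has no residual degrees of freedom, so treatment alone was fitted, and the single array of 1 arm is assumed to vary like the other arm. That model called 0 to 2 genes, the 2 (Gmnn and Dbf4) without the AMKO day 8 array, where 461 of all genes were called. Orc4 in AMKO turned to -0.03 after quantile normalization. Of the 68 differences of single genes, 62 kept their side of 2-fold without a reversed sign after quantile normalization, 65 after median centring and 63 with averaged probe sets. Orc3 in Ctrl, at 0.00, is counted among these, though it was -0.12 after quantile normalization and 0.04 after median centring. No paired analysis was possible because each group has 1 array and the labels give no replicate numbers.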
